A study of Mus musculus with 10 samples.

Results

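Two-pore domain potassium channels were examined in vagal sensory neurons of the mouse. The 10 genes Kcnk1, Kcnk2, Kcnk3, Kcnk4, Kcnk5, Kcnk6, Kcnk9, Kcnk10, Kcnk12 and Kcnk18 were taken by symbol from the 24421 gene rows of the count files, and each of the 10 had a row in the files of all 10 pools. A subunit of this family carries a pair of pore loops, and a pair of subunits forms a potassium-selective pore that is open at rest. The current that leaks through these channels holds the resting membrane potential negative and sets how easily a sensory neuron fires. Members differ in what opens or closes them: stretch, lipids and heat act on the TREK and TRAAK channels, extracellular acid on the TASK channels, and calcium through calcineurin on TRESK.

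RNA of pooled single neurons, picked under the microscope after dissociation of the ganglia, was copied with an oligo-dT primer, amplified and sequenced. Neurons from the rostral end of the fused vagal ganglion were taken as jugular and those from the caudal end as nodose, and there were 5 groups of 2 pools. For the Trpv1 selection, Trpv1-positive nodose, Trpv1-positive jugular and Trpv1-negative nodose neurons came from Trpv1-tdTomato mice, in which Cre driven by Trpv1 switches on a red reporter from the ROSA26 locus. The reporter marks neurons that express or once expressed Trpv1, the red and the unlabelled neurons came from the same mice, and the Trpv1-negative pools held fewer cells than the positive ones. For the capsaicin selection, neurons of C57BL/6 wild-type mice were picked by their calcium responses. Nodose neurons of this selection had responded to capsaicin and to α,β-methylene ATP, a P2X receptor agonist, and jugular neurons to capsaicin only. Ages of the mice were not given in the sources used here. Selection method, strain, sequencing core and depth changed together, so they cannot be told apart. The labels do not tie the pools of a group to separate animals, so the p-values below measure the spread between pools, which may be technical.

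Total counts were 148452506 to 167704327 per pool in the Trpv1 selection and 17666710 to 30810863 in the capsaicin selection. Levels are given as CPM, counts divided by size factors over all 10 pools and scaled to the geometric mean total. A count of 3, taken as the smallest count told from 0, corresponded to between 0.01159 and 0.01544 CPM per pool in the Trpv1 selection and between 0.1177 and 0.1755 CPM in the capsaicin selection, for counting error only. The labels were checked against marker genes. The jugular markers Prdm12, Tac1 and Gfra3 summed to 331.6 to 1304 CPM in jugular pools and at most 1.246 CPM in nodose pools. Trpv1 itself was at 202.2 and 117.9 CPM in the Trpv1-positive nodose pools, 17.84 and 25.79 CPM in the Trpv1-positive jugular pools, and 0.03478 and 0.03338 CPM in the Trpv1-negative pools. Capsaicin-selected pools had 213.2 and 248.1 CPM of Trpv1 in nodose and 222.8 and 70.58 CPM in jugular neurons. The summed level of 10 markers of satellite glia and Schwann cells lay between 2949 and 4040 CPM over the pools of the Trpv1 selection and between 1582 and 2093 CPM over those of the capsaicin selection. Apoe alone had group means of 2221 to 2588 CPM in the Trpv1 selection and 97.77 and 254.2 CPM in the capsaicin selection. Pmp22 went the other way, at 205.4 to 281.2 CPM against 972.8 and 1153 CPM. The sum therefore does not rank the selections by glial RNA. A smaller share of cells with a transcript and less transcript per cell cannot be told apart in any pool.

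The groups differed in which two-pore domain channel genes they contained. Kcnk3 was found in the nodose pools of both selections that expressed Trpv1, Kcnk1 in the Trpv1-negative nodose pools and Kcnk12 in the Trpv1-positive jugular pools. Kcnk2, Kcnk4, Kcnk10 and Kcnk18 appeared in several groups and differed widely between pools of 1 group, Kcnk6 was low in each pool, and Kcnk5 and Kcnk9 had no count. A group was taken to hold a member when both its pools were at 10 CPM or more. By that rule 5 of the 10 members were held by at least 1 group, namely Kcnk1, Kcnk2, Kcnk3, Kcnk4 and Kcnk10. Below, groups are also said to stand apart or not to overlap. The share of all genes with such gaps was not determined, so these statements only describe the pools.

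**Figure D1:**
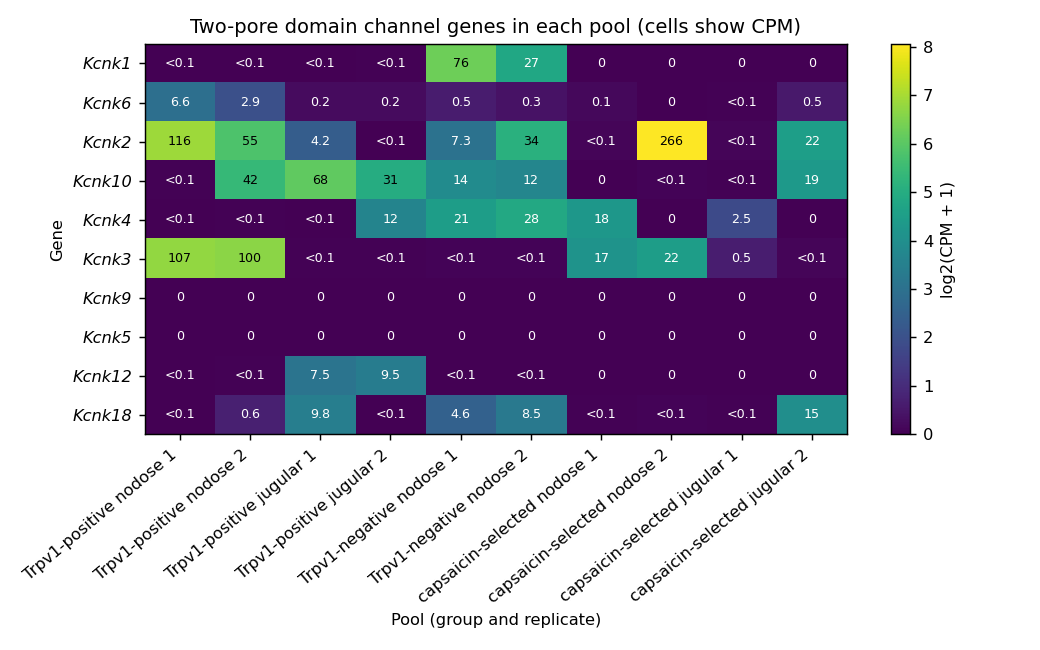
CPM of 8 detected and 2 undetected members (rows, ordered by subfamily) in each of the 10 pools (columns); the colour gives log2(CPM + 1), and values above 0 but below 0.1 are written as <0.1. Kcnk3 fills both nodose groups that express Trpv1 and is near 0 elsewhere, Kcnk1 fills the Trpv1-negative nodose pools alone, and Kcnk2 ranges from 0.08337 to 265.7 CPM between pools of 1 group.

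TASK channels close in extracellular acid and are also inhibited by receptors that couple to Gq. Of the TASK members, Kcnk3 (TASK1) lies on GRCm38 chromosome 5, from 30588170 to 30625271 on the plus strand, and has 3 exon blocks. Its level was 106.8 and 100.2 CPM in the Trpv1-positive nodose pools, from 20745 and 20441 counts. The Trpv1-positive jugular pools had 0.02584 and 0.03636 CPM, from 6 and 9 counts. Every Trpv1-positive nodose pool was thus far above every Trpv1-positive jugular pool, and the pools of each group lay close together. Capsaicin-selected nodose pools had 16.76 and 21.53 CPM of Kcnk3 and capsaicin-selected jugular pools 0.5493 and 0.08338 CPM. In the Trpv1-negative nodose pools Kcnk3 was at 0.05023 and 0.0459 CPM. Ordered by mean, Kcnk3 stood at 103.5 ± 4.62 CPM (SD, n = 2) in Trpv1-positive nodose, 19.1 ± 3.38 in capsaicin-selected nodose, 0.316 ± 0.330 in capsaicin-selected jugular, 0.0481 ± 0.00307 in Trpv1-negative nodose and 0.0311 ± 0.00744 in Trpv1-positive jugular pools, and no neighbours in this order overlapped. The 2 counts of the second capsaicin-selected jugular pool were under the 3 told from 0. The order across the 2 selections also carries the differences in strain, core and depth.

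Kcnk3 was the only member called between Trpv1-positive nodose and jugular neurons. It was higher in nodose by 11.67 ± 1.26 on the log2 scale (± SE, 2 against 2 pools), and its adjusted p was 0.0755 (edgeR quasi-likelihood test, Benjamini-Hochberg over all genes tested). To be called, a gene had to have an adjusted p no higher than 0.1, differ by 2-fold or more and reach 10 CPM in both pools of 1 of the groups. The background was 35 of 10990 tested genes, or 0.318%, with 0.182% higher in nodose and 0.136% higher in jugular neurons. After scaling for depth, the summed Kcnk3 counts differed 3310-fold, with a 95% counting interval of 2010 to 5910. This interval, like the counting intervals below, treats reads as independent and leaves out the spread between pools. Amplified reads are not independent molecules, so such intervals are too narrow for a difference between groups. With any 1 of the 4 pools left out the log2 difference was 11.42 to 11.92. Such a fit leaves 1 pool in a group and cannot decide a call. In the edgeR fit to all 10 pools the log2 difference was 11.66, and the call was lost (adjusted p of 0.231). DESeq2, which the study used for its group comparisons, gave an adjusted p of 8.51e-12 and called 459 of 13337 genes (3.44%). Rn45s, which takes up ribosomal RNA reads, held 10.34% and 8.537% of the counts of the Trpv1-positive nodose pools. Its share was between 2.652% and 3.384% in Trpv1-positive jugular and Trpv1-negative nodose pools and no more than 0.1371% in capsaicin-selected ones, and its part in the Kcnk3 levels was not tested. With 2 pools against 2, an exact two-sided permutation test cannot give a p below 0.33.

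In the capsaicin selection the fitted difference of Kcnk3 was 5.57 ± 2.90 on the log2 scale (adjusted p of 0.553, edgeR quasi-likelihood test, 2 against 2 pools). No member was called there, nor was any of the 8181 genes tested (0%), of which 1150 had an unadjusted p under 0.05. DESeq2 called 734 of 10822 genes (6.78%) in this comparison and Kcnk3 among them, with an adjusted p of 0.0756. The summed counts of Kcnk3 were 58-fold higher in nodose after scaling, with a counting interval of 35.5 to 102. With both selections in 1 fit and the selection as a covariate, the difference of Kcnk3 was 8.66 ± 2.28 on the log2 scale, nodose over jugular, with an adjusted p of 0.204 by edgeR and 6.08e-10 by DESeq2. Every one of the 4 nodose pools was above every one of the 4 jugular pools. Of all 10670 genes in that fit 88 were called, or 0.825% (0.384% higher in nodose and 0.44% higher in jugular neurons), and 0 members. An unadjusted p under 0.05 was found for 1 of the 6 members tested and for 874 of all genes, and DESeq2 called 1154 of 13829 genes (8.34%). The interaction, the difference between ganglia in the Trpv1 selection minus that in the capsaicin selection, was 6.14 ± 2.56 for Kcnk3 on the log2 scale (unadjusted p of 0.0388 and adjusted p of 0.478 by edgeR), against a median of 0.44 over all genes. None of 11959 genes was called for the interaction (0%), 1233 of them had an unadjusted p under 0.05, and DESeq2 called 1107 of 13242 genes (8.36%), Kcnk3 included at an adjusted p of 0.00528.

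Within the nodose ganglion, Trpv1-positive and Trpv1-negative pools differed in Kcnk3 by 11.08 ± 1.12 on the log2 scale (adjusted p of 0.213, edgeR quasi-likelihood test, 2 against 2 pools). Their summed counts differed 2150-fold after scaling, with a counting interval of 1440 to 3350. No member was called by edgeR in this comparison, while 6 of 11386 genes (0.0527%) were. An unadjusted p under 0.05 was found for 3 of the 7 members tested and for 1264 of the 11386 genes. DESeq2 called 320 of 14159 genes (2.26%), among them Kcnk3 (adjusted p of 9.98e-12), Kcnk1 (5.65e-10) and Kcnk4 (1.1e-07). Gm9899, a transcript on the opposite strand, shares 229 exon bases with Kcnk3, 5.76% of its exons, and was at 68.65 and 0.9563 CPM in the Trpv1-positive nodose pools and at most 0.01292 CPM elsewhere. Reads from the shared bases cannot be assigned where strand is not kept. Kcnk3 was at 106.8 and 100.2 CPM in the same Trpv1-positive nodose pools, in that order. The part of Gm9899 in the Kcnk3 counts was not tested.

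Kcnk9 (TASK3), the other TASK gene, had 0 counts in each of the 10 pools. Kcnk5 (TASK2), a channel of the alkaline-activated group, also had 0 counts in each pool. At these depths a level of up to 0.01544 CPM in a pool of the Trpv1 selection, or 0.1755 CPM in the capsaicin selection, would not have been told from 0.

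**Figure D2:**
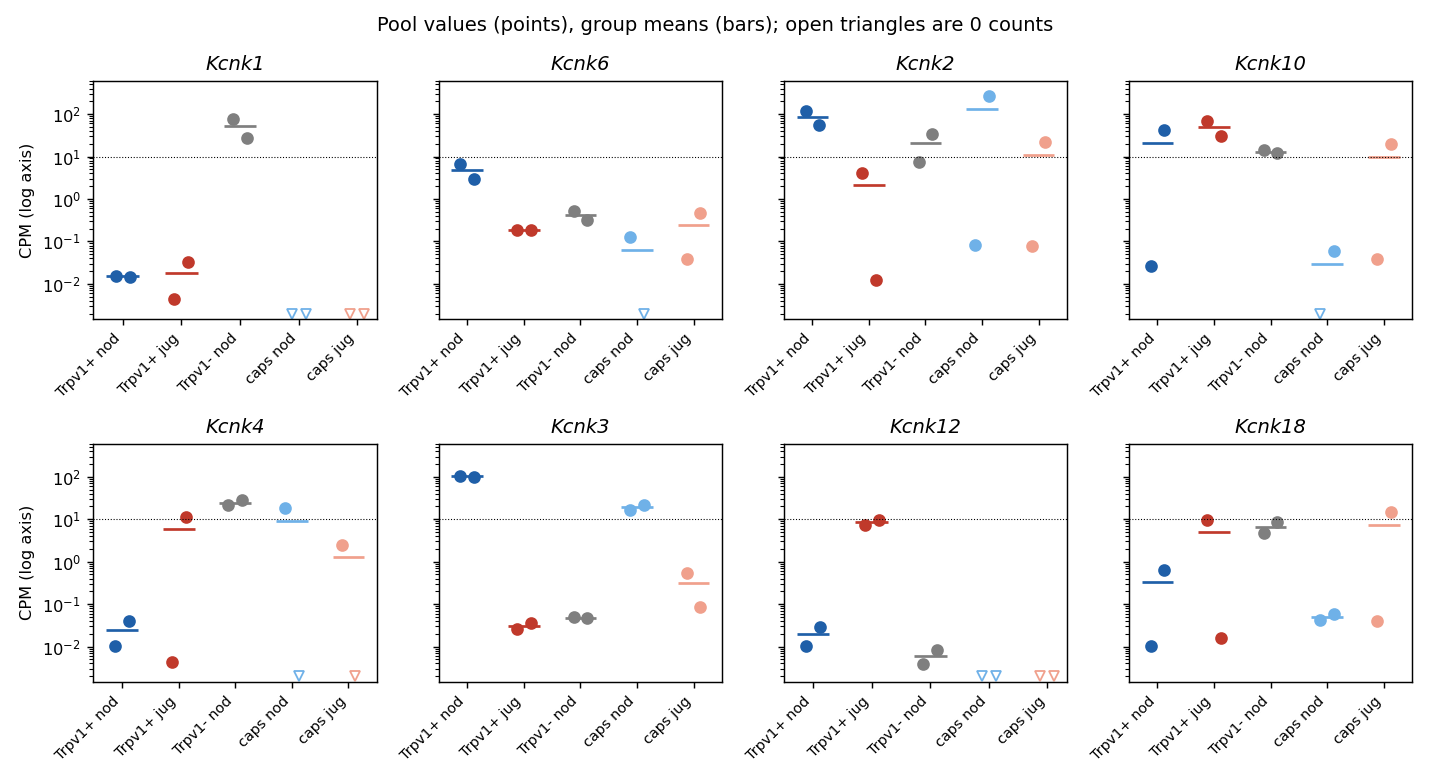
CPM (log axis) of the 8 detected members in the 5 groups; points are pools, bars are group means, open triangles are pools with 0 counts, and the dotted line marks 10 CPM. For Kcnk3 the 2 pools of a group lie close together except in capsaicin-selected jugular neurons, at 0.5493 and 0.08338 CPM, whereas for Kcnk2, Kcnk4, Kcnk10 and Kcnk18 the pools of several groups lie orders of magnitude apart.

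TWIK channels pass weak currents and are in large part kept inside the cell. Kcnk1 (TWIK1) lies on chromosome 8, from 125995170 to 126030685 on the plus strand. It was at 76.02 and 26.68 CPM in the Trpv1-negative nodose pools, from 19675 and 6394 counts. The Trpv1-positive nodose pools had 3 counts each, the Trpv1-positive jugular pools 1 and 8 counts, and the 4 capsaicin-selected pools 0. Both Trpv1-negative pools thus stood apart from the other 8, at a mean of 51.4 ± 34.9 CPM (SD, n = 2). The fitted difference between Trpv1-positive and Trpv1-negative nodose pools was -11.67 ± 1.98 on the log2 scale (adjusted p of 0.366, edgeR quasi-likelihood test), and the counts of the Trpv1-negative pools were 3470-fold those of the positive ones after scaling (counting interval 1590 to 9460). Against Trpv1-positive jugular neurons the fitted difference was 11.41 ± 2.09 (adjusted p of 0.288 by edgeR and 1.56e-10 by DESeq2). In that comparison 26 of 11506 genes, or 0.226% (0.0869% higher in the nodose and 0.139% higher in the jugular group), and no member were called by edgeR, and 537 of 14188 genes (3.78%) by DESeq2. An unadjusted p under 0.05 was found for 2 of the 8 members tested and for 1490 of all genes. Ganglion and Trpv1 expression both differ between these groups and cannot be told apart.

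Glial transcripts moved in part with Kcnk1. Sox10, a transcription factor of glia, was at 10.15 and 2.241 CPM in the Trpv1-negative pools and at most 0.1765 CPM in the other 8, and Kcnj10, the inward rectifier of satellite glia, was at 13.12 CPM in the first Trpv1-negative pool and at most 1.167 CPM elsewhere. The whole list of 10 glial markers summed to 3376 and 3009 CPM in the Trpv1-negative pools and to 3402 and 3565 CPM in the Trpv1-positive nodose pools, with 8 and 6 markers against 6 and 5 at 10 CPM or more. The part of glial RNA in the levels of Kcnk1 and Kcnk4 was not tested. An antisense gene, Gm45875, shares 179 bases with the exons of Kcnk1 (8.01%) and was not analysed here.

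Kcnk6 (TWIK2) was highest in the Trpv1-positive nodose pools, at 6.645 and 2.903 CPM. It was at 0.1809 and 0.1858 CPM in Trpv1-positive jugular, 0.5178 and 0.3213 CPM in Trpv1-negative nodose, 0.1251 and 0 CPM in capsaicin-selected nodose and 0.03924 and 0.4586 CPM in capsaicin-selected jugular pools. The Trpv1-positive nodose pools lay above the other 8 without overlap, below the 10 CPM that a call needed. Their summed counts were 25.8-fold those of Trpv1-positive jugular pools after scaling (counting interval 20.8 to 32.3) and 11.2-fold those of Trpv1-negative nodose pools (9.69 to 12.9). The fitted log2 differences were 4.69 ± 2.23 (adjusted p of 0.543, edgeR quasi-likelihood test) and 3.52 ± 2.101 (adjusted p of 0.7). DESeq2 gave adjusted p-values of 0.012 and 0.0921, with no call under the 10 CPM rule. Between Trpv1-negative nodose, capsaicin-selected jugular and Trpv1-positive jugular neurons, each neighbouring pair in the order of means overlapped.

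TREK and TRAAK channels open on stretch, warming and polyunsaturated lipids. Kcnk2 (TREK1), on chromosome 1 from 189207930 to 189402273 on the minus strand, was at 115.9 and 55.47 CPM in the Trpv1-positive nodose pools. Trpv1-positive jugular pools had 4.199 and 0.01212 CPM and Trpv1-negative nodose pools 7.256 and 34.02 CPM. In the capsaicin selection the nodose pools had 0.08337 and 265.7 CPM and the jugular pools 0.07848 and 21.76 CPM. The 2 Trpv1-positive nodose pools lay above those of both other groups of the Trpv1 selection, while in the capsaicin selection the second pool of each ganglion carried nearly every Kcnk2 count. Fitted differences were 5.34 ± 2.51 for Trpv1-positive nodose over jugular (adjusted p of 0.532, edgeR quasi-likelihood test) and 2.102 ± 1.06 for Trpv1-positive over Trpv1-negative nodose (adjusted p of 0.605), both on the log2 scale. The first was 12.68 without the first Trpv1-positive jugular pool, and the second ranged from 1.39 without the first Trpv1-negative pool to 3.54 without the second. Over both selections the value was 4.21 ± 2.35 (adjusted p of 0.773), and 6.69 without the second capsaicin-selected jugular pool. Ordered by mean, capsaicin-selected nodose (133 ± 188 CPM, SD, n = 2) overlapped Trpv1-positive nodose (85.7 ± 42.7), and Trpv1-negative nodose (20.6 ± 18.9), capsaicin-selected jugular (10.9 ± 15.3) and Trpv1-positive jugular (2.11 ± 2.96) overlapped in turn. The antisense gene A430027H14Rik shares 604 bases with Kcnk2, 12.2% of its exons, and was not analysed here.

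Kcnk10 (TREK2), on chromosome 12 from 98429437 to 98578310 on the minus strand, was highest in the Trpv1-positive jugular pools, at 67.61 and 31.01 CPM. Trpv1-negative nodose pools had 13.93 and 11.99 CPM and lay close together. The Trpv1-positive nodose pools split, with 0.02574 CPM (5 counts) in the first and 41.54 CPM (8471 counts) in the second. Capsaicin-selected nodose pools had 0 and 1 count and capsaicin-selected jugular pools 0.03924 and 19.35 CPM. Between these DESeq2 gave -8.84 on the log2 scale, nodose over jugular (adjusted p of 0.0345), with no call under the 10 CPM rule. Each neighbouring pair in the order of means overlapped, from Trpv1-positive jugular (49.3 ± 25.9 CPM, SD, n = 2) over Trpv1-positive nodose (20.8 ± 29.4) down to capsaicin-selected nodose. The fitted log2 difference was -1.24 ± 2.47 for Trpv1-positive nodose over jugular (adjusted p of 0.955, edgeR quasi-likelihood test), 0.72 ± 2.64 for Trpv1-positive over Trpv1-negative nodose (0.995) and -1.95 ± 1.01 for Trpv1-negative nodose over Trpv1-positive jugular (0.556). Without the second Trpv1-positive nodose pool the first of these values was -10.9 and the second -8.92. Without the first Trpv1-positive nodose pool they were -0.249 and 1.73, and without the first Trpv1-positive jugular pool the first was -0.58 and the third -1.28.

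Kcnk4 (TRAAK), on chromosome 19 from 6923966 to 6934515 on the minus strand, was at 21.18 and 27.81 CPM in the Trpv1-negative nodose pools. The Trpv1-positive nodose pools had 0.01029 and 0.03923 CPM, from 2 and 8 counts. In each remaining group 1 pool carried nearly every count: 0.004307 and 11.56 CPM in Trpv1-positive jugular, 18.05 and 0 CPM in capsaicin-selected nodose, and 2.511 and 0 CPM in capsaicin-selected jugular pools. The Trpv1-negative nodose pools lay above the other 8, and the other groups overlapped one another in the order of means. Trpv1-positive and Trpv1-negative nodose pools differed by -9.88 ± 2.50 on the log2 scale (adjusted p of 0.366, edgeR quasi-likelihood test), and the Trpv1-negative counts were 970-fold the positive ones after scaling (counting interval 527 to 2020). Trpv1-negative nodose over Trpv1-positive jugular gave 2.07 ± 2.71 (adjusted p of 0.894), with 12.25 without the second Trpv1-positive jugular pool and 1.05 without the first. For Trpv1-positive nodose over jugular DESeq2 gave -7.83 on the log2 scale (adjusted p of 0.0235). The second jugular pool carried nearly every count there, and no call was made under the 10 CPM rule. Catsperz, on the same strand, shares 587 exon bases with Kcnk4 (13.1%) and was not analysed here.

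Kcnk12 (THIK2), a halothane-inhibited channel that passes little current on its own, lies on chromosome 17 from 87745801 to 87797994 on the minus strand. It was at 7.498 and 9.53 CPM in the Trpv1-positive jugular pools, from 1741 and 2359 counts. The Trpv1-positive nodose pools had 2 and 6 counts, the Trpv1-negative nodose pools 1 and 2 counts, and the 4 capsaicin-selected pools 0. Both Trpv1-positive jugular pools therefore stood apart from the other 8. The capsaicin-selected jugular pools, from the same ganglion, had no count at floors of 0.1177 and 0.1251 CPM. The fitted log2 difference was -8.71 ± 2.77 for Trpv1-positive nodose over jugular (unadjusted p of 0.0243, adjusted p of 0.329, edgeR quasi-likelihood test) and -10.36 ± 2.93 for Trpv1-negative nodose over Trpv1-positive jugular (adjusted p of 0.288). After scaling, the jugular counts were 425-fold those of Trpv1-positive nodose pools (counting interval 216 to 986) and 1420-fold those of Trpv1-negative nodose pools (486 to 6890). DESeq2 gave adjusted p-values of 2.24e-06 and 4.32e-12, but the level was under 10 CPM on the scale of all 10 pools, so no call was made. On plain CPM, from totals alone, the Trpv1-positive jugular pools were at 10.57 and 14.07, which passes that rule.

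Kcnk18 (TRESK), which calcineurin switches on when calcium enters the cell, lies on chromosome 19 from 59219214 to 59237374 on the plus strand. It was at 4.648 and 8.549 CPM in the Trpv1-negative nodose pools, at 9.832 and 0.01616 CPM in the Trpv1-positive jugular pools and at 0.03924 and 14.84 CPM in the capsaicin-selected jugular pools. Trpv1-positive nodose pools had 0.01029 and 0.6424 CPM and capsaicin-selected nodose pools 1 count each. In both jugular groups 1 pool carried the counts, and the order of means had overlapping neighbours throughout. Its fitted log2 differences were -3.90 ± 3.51 for Trpv1-positive nodose over jugular (adjusted p of 0.836, edgeR quasi-likelihood test) and -4.28 ± 2.75 for Trpv1-positive over Trpv1-negative nodose (0.734). DESeq2 gave adjusted p-values of 0.472 and 0.214 for these. For nodose over jugular it gave -7.49 in the capsaicin selection (adjusted p of 0.049) and -5.46 over both selections (0.0353), with no call under the 10 CPM rule. No group reached 10 CPM in both pools.

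**Figure D3:**
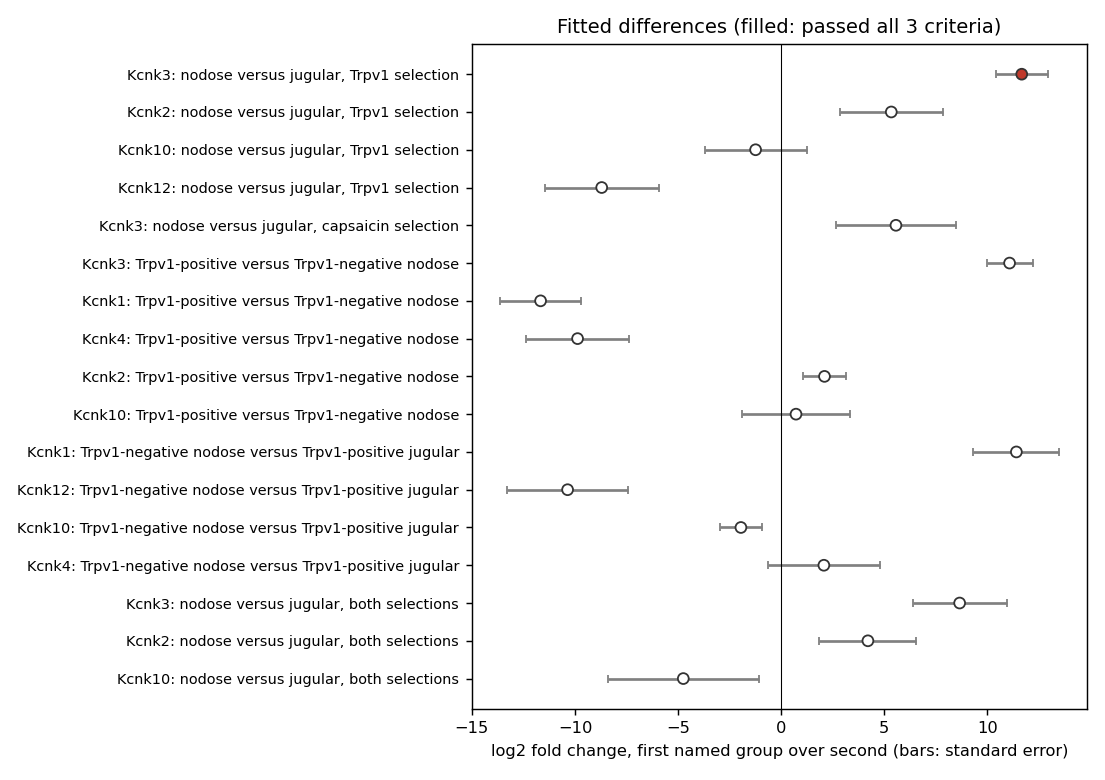
Fitted log2 fold changes (points) and standard errors (bars) of Kcnk1, Kcnk2, Kcnk3, Kcnk4, Kcnk10 and Kcnk12 in selected comparisons, the first group over the second. Kcnk6 and Kcnk18 are not drawn. The filled point passed the adjusted p of 0.1, the fold of 2 and the 10 CPM rule. Only Kcnk3 between Trpv1-positive nodose and jugular neurons, at 11.67, is filled. Kcnk1, Kcnk4 and Kcnk12 reach differences of like size with wider bars. Kcnk3 between Trpv1-positive and Trpv1-negative nodose neurons, at 11.08, has a narrower bar but is open (adjusted p of 0.213, edgeR quasi-likelihood test). The calls thus also turn on the adjustment over all genes of each comparison.

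Kcnk1 and Kcnk4 were highest in the Trpv1-negative nodose pools and Kcnk12 in the Trpv1-positive jugular pools, each without overlap with other groups. For Kcnk4 the gap was narrow, at 21.18 CPM against 18.05 CPM in the first capsaicin-selected nodose pool. The bases before the starts of Kcnk1, Kcnk4 and Kcnk12 are shown so that members with a high level in the same and in different groups can be compared. Each window is the 250 bases before a RefSeq start (GRCm38.p6) and holds no annotated exon base of GENCODE vM21; the 7 members with a RefSeq window were Kcnk1, Kcnk2, Kcnk4, Kcnk5, Kcnk10, Kcnk12 and Kcnk18. Capitals mark the Sp1 box GGGCGG, or CCGCCC where it lies on the other strand.
Kcnk1 (chr8:125994852-125995101, plus strand): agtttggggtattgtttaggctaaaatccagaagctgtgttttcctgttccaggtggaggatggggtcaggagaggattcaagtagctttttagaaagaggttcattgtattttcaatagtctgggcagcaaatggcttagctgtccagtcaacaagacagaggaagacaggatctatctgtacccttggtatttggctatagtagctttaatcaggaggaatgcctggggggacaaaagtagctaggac
Kcnk4 (chr19:6934516-6934765, minus strand): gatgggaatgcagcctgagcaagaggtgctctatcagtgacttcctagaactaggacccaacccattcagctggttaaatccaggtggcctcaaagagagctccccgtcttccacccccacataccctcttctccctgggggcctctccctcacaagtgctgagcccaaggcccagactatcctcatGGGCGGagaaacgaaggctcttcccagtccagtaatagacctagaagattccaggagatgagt
Kcnk12 (chr17:87797995-87798244, minus strand): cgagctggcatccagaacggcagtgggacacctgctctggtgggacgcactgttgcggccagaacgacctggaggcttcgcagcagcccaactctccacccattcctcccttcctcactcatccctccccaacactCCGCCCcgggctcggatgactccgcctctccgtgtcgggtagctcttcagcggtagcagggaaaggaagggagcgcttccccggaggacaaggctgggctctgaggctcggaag
GC content was 44.4% in the Kcnk1 window, 54.8% in the Kcnk4 window and 64.8% in the Kcnk12 window, against a median of 52.4% over 32817 windows of the same length. The Sp1 box was present once in the Kcnk4 and once in the Kcnk12 window and absent from these letters in the Kcnk1 window, and 32.7% of all windows hold it on either strand. The TATA box TATAAA was in none of these windows and in 12.4% of all, and the cAMP response element TGACGTCA was in none of them and in 1.55% of all. The E-box CANNTG was found 2, 3 and 1 times in the Kcnk1, Kcnk4 and Kcnk12 windows, and in 66.2% of all windows at least once. These matches are a description of the letters only.

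Levels of different genes were compared per kb of exon, since longer transcripts can give more counts. On this scale Kcnk3 led in the Trpv1-positive nodose pools, at 26.86 and 25.2 CPM per kb, or 51.7% and 59.9% of the summed level of the members, and Kcnk2 came next at 23.45 and 11.22 CPM per kb. Kcnk1 led in the Trpv1-negative nodose pools, at 34.01 and 11.94 CPM per kb (78.6% and 41.2%). In the Trpv1-positive jugular pools Kcnk10 led the first pool at 7.706 and Kcnk12 the second at 4.833 CPM per kb. The leading member also differed between the pools of each capsaicin-selected group, Kcnk3 and Kcnk2 in nodose and Kcnk4 and Kcnk2 in jugular neurons. The first capsaicin-selected jugular pool held only 83 counts over the members, which limits any share in it.

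Summed over the members, the level was 51.93 and 42.07 CPM per kb in Trpv1-positive nodose, 43.29 and 28.97 in Trpv1-negative nodose and 15.24 and 11.03 in Trpv1-positive jugular pools. Both nodose groups of the Trpv1 selection thus lay above the jugular group without overlap, and overlapped each other. Capsaicin-selected pools had 8.317 and 59.19 CPM per kb in nodose and 0.7417 and 11.02 in jugular neurons, where the ranges overlapped. These sums were not tested.

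**Figure D4:**
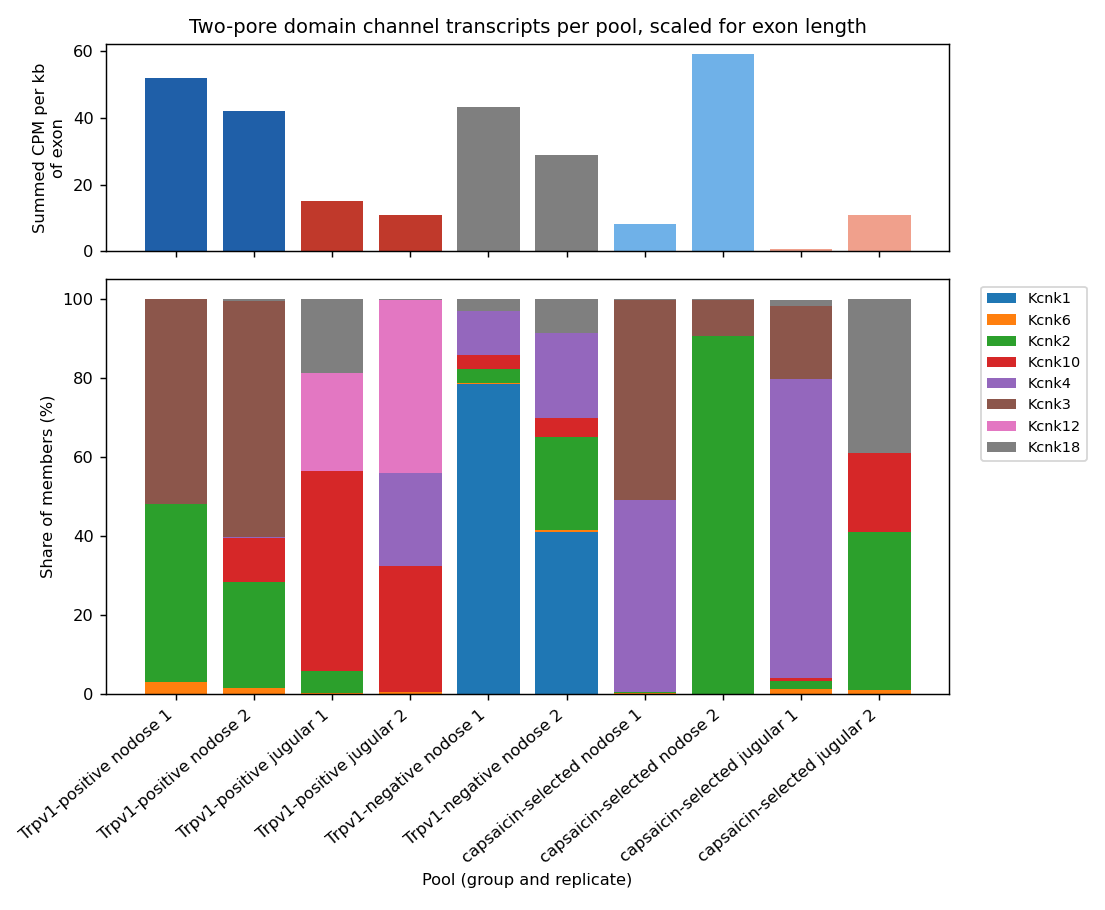
Upper panel, summed level of the members in each pool (CPM per kb of exon); lower panel, share of each detected member in that sum (%). Kcnk3 and Kcnk2 make up most of the sum in Trpv1-positive nodose pools, Kcnk1 leads in Trpv1-negative nodose pools, and the makeup differs most between the pools of the capsaicin selection.

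Disagreement between the pools of 1 group was frequent among the members. Of 15 cases of a member at 10 CPM or more in a pool, the other pool of the group was under 1 CPM in 7 (46.67%), against 9220 of 37693 cases (24.46%) over all genes. The members in question were Kcnk10 in Trpv1-positive nodose, Kcnk4 in Trpv1-positive jugular, Kcnk2 and Kcnk4 in capsaicin-selected nodose, and Kcnk2, Kcnk10 and Kcnk18 in capsaicin-selected jugular pools. Trpv1-negative nodose pools had no such case among 4. Over all genes the share was 44.31% in capsaicin-selected nodose and 14.59% in Trpv1-negative nodose pools, so it also differed between groups.

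The genes whose log2(CPM + 1) followed a member most closely over the 10 pools were looked up among 7503 genes at 10 CPM or more in both pools of a group. Kcnk3 was most like Uts2b (Pearson r of 0.9837), Efcab6 (0.9825) and Tmem176b (0.9245). Kcnk1 was most like Edn3 (0.9998), which encodes an endothelin peptide and was at 22.69 and 11.18 CPM in the Trpv1-negative pools and at most 0.01029 CPM elsewhere, followed by Slc35f3 (0.9981) and Taf4b (0.9969). Kcnk4 was most like Axl (0.959), Kcnk10 most like P4htm (0.9628) and Kcnk2 most like Plekha6 (0.9279). These are the highest of many correlations, the points share groups, depth and core, and no test was made. Among the 5 members held by a group, r over the 10 pools was highest for Kcnk1 with Kcnk4 (0.661) and lowest for Kcnk2 with Kcnk4 (-0.514).

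Other genes of the pathway were counted from lists. The remaining family members Kcnk7, Kcnk15 and Kcnk16 had 0 counts in each pool, and Kcnk13 was at most 1.53 CPM. Of 30 regulators and partners of the channels, 25 to 27 were tested in each comparison and 0 were called by edgeR, with 0 to 3 at an unadjusted p under 0.05. Median log2 differences of the regulators were -0.02 between Trpv1-positive nodose and jugular pools, 0.18 in the capsaicin selection and 0.04 between Trpv1-positive and Trpv1-negative nodose pools, against 0.03, -0.02 and 0.01 over all genes tested. For the members that passed the filter, 6 of 10 in the first of these comparisons, 3 in the second and 7 in the third, the medians were 1.72, 3.02 and 0.72. In the fit over both selections the median of the 6 members tested was -0.52, against -0.16 over all genes. These medians rest on few genes, some of which passed the filter only through the group where they were high. They were not tested and cannot decide whether the family as a whole differed. S100a10, which binds TASK1 and brings it to the cell surface, was at 1304 and 846.6 CPM in the Trpv1-positive nodose pools. The Trpv1-positive jugular pools had 930.7 and 952.3 CPM, so these groups overlapped for S100a10 but not for Kcnk3. In the capsaicin selection S100a10 was at 430.7 to 435.9 CPM in nodose and 183.6 to 245.1 CPM in jugular pools. Those groups did not overlap, and nodose was the higher, as for Kcnk3. Akap5, an anchoring protein that acts on TREK channels, was at 6.45 to 17.54 CPM over the pools of the Trpv1 selection. Ppp3ca, a catalytic subunit of calcineurin, was at 126.9 CPM or more in each of the 10 pools, also where Kcnk18 was near 0. Of the sodium leak channel complex, whose inward current opposes the potassium leak, 4 of 5 genes were in the files and 0 were called; Nalcn, the pore, was at most 11.94 CPM except in the second capsaicin-selected nodose pool, at 195.5 CPM.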

How the data were processed

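RNA of 10 pools of mouse vagal neurons was analysed, 5 groups of 2. The authors made cDNA with an ultra-low input kit, aligned paired reads to mm10 with TopHat2 2.0.9 and Bowtie2 2.1.0.0 and counted them with HTSeq, and the deposited values are raw counts per gene symbol. The annotation, counting mode and strand setting are not given in the sources used here, and amplified reads are not independent molecules. The files have 24421 gene rows, 27 of them with month-like symbols made by a spreadsheet.

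CPM were counts over DESeq2 1.42.0 size factors of all 10 pools, scaled to the geometric mean total. Tests were edgeR 4.0.16 quasi-likelihood tests in R 4.3.3 (TMM, filterByExpr) on the pools of each comparison, with Benjamini-Hochberg adjustment over all genes tested. SE is the log2 difference over the root of the F statistic. Counting intervals are exact at 95% for summed reads taken as independent, and leave out the spread between pools. Calls followed the thresholds of the study's methods. The study made its group comparisons in DESeq2, which here was an alternative to edgeR. The 10 CPM rule was applied on the scale of all 10 pools, which differs from the study's CPM. Calls here are therefore not those of the study's own procedure.

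Named genes were the 10 members, the remaining family genes, and members of the lists that were called, at a high level or linked to a member. The list genes S100a10, Akap5, Ppp3ca and Nalcn were picked after their values were seen, and Edn3 was named as the gene most like Kcnk1. The members and lists were chosen with earlier results of these data known. Jugular, neuron, nociceptor, glial, macrophage, endothelial, fibroblast and red blood cell markers were summed per pool, and the sum of 1 further marker list is not reported here. Neuron markers summed to 5164 to 12020 CPM, nociceptor markers to 191.1 to 1399, fibroblast markers to 0 to 239.2, macrophage markers to 0 to 75.7, endothelial markers to 0 to 22.98, and red blood cell markers to 0. Replicate pools differed beyond sampling noise (chi-square per degree of freedom of 513 to 3040). Shared replicate numbers did not pair pools: deviations from group means correlated at 0.002206, -0.01369, -0.0126 and 0.0177 in the 4 comparisons of 2 groups.

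Positions and exon lengths came from GENCODE vM21 on GRCm38, upstream windows from RefSeq, GRCm38.p6. Scripts were tested on simulated counts. With the fitted spread of Trpv1-positive nodose and jugular pools and 10699 genes, 42% of genes changed 16-fold and 91% of genes changed 256-fold were recovered, and 8.276% of the calls were unchanged genes. With both selections and 10405 genes these were 42%, 87% and 10.42%. Python 3.11.15 with pandas 2.3.3 and matplotlib 3.10.9 made tables and plots.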

Additional observations from a re-analysis of the deposited data

How the results depend on the processing

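Levels under 0.01544 CPM in the Trpv1 selection and 0.1755 CPM in the capsaicin selection could not be told from 0 in every pool. The number of members called between Trpv1-positive nodose and jugular neurons was 1, and 0 with a replicate block, with 1 fit to all 10 pools, with the bias-adjusted quasi-likelihood and without any 1 pool (0 to 0). Under the settings that kept every pool, Kcnk3 had adjusted p-values of 0.321, 0.231 and 0.455 (edgeR quasi-likelihood test). The fits without 1 pool left 1 pool in a group and could not decide a call. With DESeq2 and the 10 CPM rule on plain CPM, 2 members were called, Kcnk3 and Kcnk12. In the capsaicin selection DESeq2 called 1 member in place of 0, with either CPM rule. Between Trpv1-positive and Trpv1-negative nodose neurons DESeq2 called 3 with either rule, and a fit with no filter on low counts called 1 (Kcnk3, adjusted p of 0.0866). Between Trpv1-negative nodose and Trpv1-positive jugular neurons DESeq2 called 1, and 2 with the rule on plain CPM. Over both selections DESeq2 called 1, or 2 on plain CPM, and 1 was called without the filter (Kcnk3, 0.0673) and with the bias-adjusted test (Kcnk3, 0.0384). For the interaction DESeq2 called 1, or 2 on plain CPM. Over all genes, DESeq2 with the plain CPM rule called 546 of 13337 (4.09%), 796 of 10822 (7.36%), 438 of 14159 (3.09%), 671 of 14188 (4.73%), 1236 of 13829 (8.94%) and 1212 of 13242 (9.15%), in the order of comparisons just given. In these 5 comparisons leaving out any 1 pool gave 0 calls among members. The bias-adjusted test and the plain CPM rule were added after seeing the data. The number of cases of a member held by a group was 7, 11 with a minimum of 1 CPM, and 9 on plain or TMM-scaled CPM. The cause of these changes was not tested.

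Directions turned for Kcnk10 between Trpv1-positive and Trpv1-negative nodose neurons, from 0.72 to -3.51 with the replicate block and to -8.92 without the second Trpv1-positive pool (range without 1 pool -8.92 to 1.73). They also turned for the interactions of Kcnk10, from 7.64 to -1.92 without the second Trpv1-positive nodose pool and -0.36 without the second capsaicin-selected jugular pool (range -1.92 to 11.83), and of Kcnk2, from 2.29 to -4.88 without the latter pool (range -4.88 to 12.58). Over the log2 differences of single members, direction turned in 1 of 177 values under another setting and in 4 of 104 with 1 pool left out. Direction and side of the threshold were both kept in 154 of the 177. Settings that changed only the CPM rule reused a fit, so their log2 differences repeat it and could not move. The count of 154 is therefore no measure of stability. The replicate numbers did not pair the pools, and the block changed no other call among members.

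Over all genes, calls between Trpv1-positive nodose and jugular pools were 35, against 459 with DESeq2, 59 without the filter, 13 with the replicate block and 0 without any 1 pool. In the capsaicin selection they were 0, against 734, 122, 20 and 0 to 29, and 110 with 1 fit to all 10 pools. Between Trpv1-positive and Trpv1-negative nodose pools they were 6, against 320, 10, 1 and 0, and between Trpv1-negative nodose and Trpv1-positive jugular pools 26, against 537, 47, 2 and 1 to 2. Over both selections they were 88, against 1154, 222, 41 and 36 to 82, and 165 with the bias-adjusted test. For the interaction they were 0, against 1107, 95, 0 and 0 to 195.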
